A study of Mus musculus with 12 samples.

Results

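The chronic cold response of control inguinal fat was read from 6 of the 12 arrays of the series, the 3 flox Chronic Cold and the 3 flox Room Temperature (RT) arrays, which were chosen by their labels alone. Inguinal white adipose tissue (iWAT) is a fat pad under the skin of the groin, and each array measured RNA of this tissue from mice on standard chow, labelled as 9 months old. The flox mice were littermate controls that carry loxP sites around Baf60a (gene symbol Smarcd1), a subunit of the SWI/SNF chromatin remodelling complex, and have no Cre, so that the gene is intact. The other 6 arrays came from AKO mice, which carry the same floxed alleles and an Adiponectin-Cre transgene that acts in adipocytes, again 3 arrays in the cold and 3 at RT. In the cold groups the chamber was cooled by 3 °C a day to 10 °C and held there for 7 more days, and RT was 22 °C. Each array held pooled RNA of 1 or 2 mice. A pool is 1 sample here, and p-values measure the spread between such pools. Values are log2 signals that the authors had normalized by RMA (robust multi-array average), for 22180 genes, each read from 1 probe set of the array (the brightest where a gene had several). A difference is the mean of the cold arrays minus the mean of the RT arrays of flox on the log2 scale, where 1 is a doubling.

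Inguinal fat is mostly white fat, which stores triglyceride, but in the cold some of its adipocytes take on a beige form. Beige and brown adipocytes are rich in mitochondria and hold UCP1, a protein of the inner mitochondrial membrane that lets protons back without making ATP, so that burning fuel gives heat. Cold reaches the pad mainly through sympathetic nerves, which raise cyclic AMP in adipocytes, release fatty acids from stored fat, and with time also raise the making of new fat.

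In flox iWAT 2 genes rose past the threshold in the cold and none fell, by limma's moderated test with Benjamini-Hochberg adjustment over all genes at 0.05. Both genes that rose, Chchd10 and Cox8b, encode mitochondrial proteins that are abundant in brown fat. They are 0.00902% of the genes tested, and the share that fell is 0%. A limit of 0.1 let in 20 higher genes (0.0902%) and 5 lower genes (0.0225%), among them genes of fat synthesis on the higher side and Mt2, Hp and Has2 on the lower side. Without adjustment 2093 genes (9.44%) had a p below 0.05, of which 1105 were higher and 988 lower in the cold. All 3 cold arrays lay above all 3 RT arrays for 7.02% of genes and below them for 5.86%. Leaving out flox RT 3 gave 33 genes higher and 71 lower past the threshold, leaving out flox cold 3 gave 7 higher, and trend with robust settings gave 42 higher and 8 lower. The shares without overlap are the background for every gene list described here. With 3 arrays against 3 an exact permutation test of a single gene cannot go below a p of 0.1.

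Chchd10, which encodes a small protein of the mitochondrial intermembrane space, had signals of 8.39, 8.72 and 8.44 in cold flox iWAT, against 7.15, 7.41 and 7.10 in RT flox iWAT. The groups stood more than 0.9 log2 units apart at their nearest arrays, and no array stood out. Its means were 8.52 ± 0.18 in the cold and 7.22 ± 0.17 at RT (SD, n = 3 each), a difference of 1.30 ± 0.14 (SE; adjusted p = 0.0230 by limma). Cox8b, which encodes the form of cytochrome c oxidase subunit 8 found in brown fat and striated muscle, had signals of 7.49, 8.39 and 7.98 in the cold, against 6.11, 5.34 and 6.05 at RT. The groups did not overlap, though cold 1 and RT 2 each lay apart from their fellows. Its means were 7.95 ± 0.45 in the cold and 5.84 ± 0.43 at RT (SD, n = 3 each), a difference of 2.12 ± 0.25 (SE; adjusted p = 0.0230 by limma), or 4.33-fold. Both calls were lost when flox cold 2 was left out (adjusted p = 0.0818 for each, by limma) or when flox RT 1 was (0.0835 for each), and in a fit of the 6 flox arrays alone (0.428 for each), with differences in these fits of 1.20 to 1.30 for Chchd10 and 1.90 to 2.25 for Cox8b. AKO arrays lend only their spread to this test, and without AKO RT 2 (adjusted p of 0.0514 for Chchd10 and 0.0618 for Cox8b, by limma) or AKO cold 2 (0.0626 for each) neither gene was past the threshold. Cox8b alone was lost without flox cold 3 (0.0519), flox RT 2 (0.0898), AKO RT 1 (0.0503) or AKO RT 3 (0.0508).

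The 120 bases just before the annotated start of these 2 genes are given here because they are the genes that passed the test. They are RefSeq sequences of GRCm38.p6, written from 5′ to 3′ on the gene's own strand, chr10:75933010-75933129 (plus strand) for Chchd10 and chr7:140900447-140900566 (minus strand) for Cox8b.
Chchd10: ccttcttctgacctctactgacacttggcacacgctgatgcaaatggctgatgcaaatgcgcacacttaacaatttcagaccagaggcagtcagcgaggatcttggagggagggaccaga
Cox8b: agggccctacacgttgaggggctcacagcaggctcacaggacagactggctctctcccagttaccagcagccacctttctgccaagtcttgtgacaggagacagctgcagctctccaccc
Neither stretch holds the NRF1-type site or the CCAAT box that are described below.

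**Figure D1:**
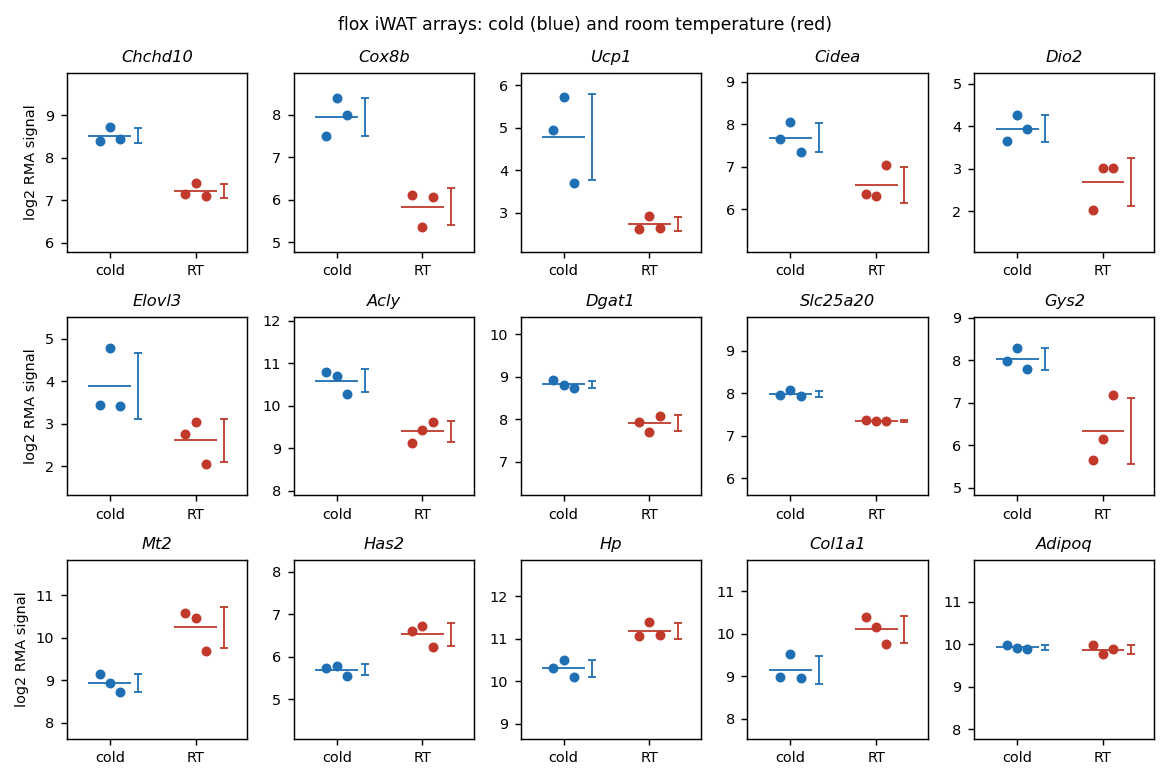
Log2 RMA signal of 15 genes in each flox iWAT array, cold (blue, left) and RT (red, right), with the mean as a horizontal line and a side bar for the mean ± SD (n = 3 each); every panel spans the same number of log2 units. The cold and RT points of Chchd10 and Cox8b do not overlap, the 3 cold points of Ucp1 are spread from 3.70 to 5.72, and the points of Adipoq overlap.

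The genes that define thermogenic fat were higher in the cold as values, but except for Chchd10 and Cox8b they did not pass the test. Ucp1 had signals of 4.94, 5.72 and 3.70 in the cold, against 2.63, 2.92 and 2.64 at RT. The groups did not overlap, and the cold arrays were spread more than 2 log2 units, with cold 3 nearest to the RT arrays. The difference was 2.06 ± 0.38 (SE; adjusted p = 0.1003 by limma), or 4.17-fold. Cidea, a lipid droplet protein of brown fat, had 7.66, 8.04 and 7.35 in the cold, against 6.36, 6.30 and 7.05 at RT. RT 3 was higher than the other RT arrays and lay closest to cold 3, without overlap. The difference was 1.11 (adjusted p = 0.1003 by limma). Dio2, the enzyme that turns thyroxine into its active form, had 3.64, 4.26 and 3.93 in the cold, against 2.04, 3.02 and 3.01 at RT. The groups did not overlap, and the difference of 1.26 had an adjusted p of 0.189 by limma. A second, dim probe set of Dio2 differed by -0.09. Elovl3, which lengthens fatty acids in brown fat, had 3.45, 4.78 and 3.43 in the cold, against 2.76, 3.04 and 2.06 at RT, and cold 2 alone was far above the rest. Its difference of 1.27 had an adjusted p of 0.277 by limma. At RT the signals of Ucp1 and the means of Dio2 (2.69) and Elovl3 (2.62) lay below the median of all values (3.635). With such dim baselines the sizes of these 3 differences are uncertain.

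Other genes of this group split. P2rx5, an ATP-gated ion channel used as a surface marker of brown and beige adipocytes, had 6.06, 6.11 and 5.98 in the cold, against 4.99, 5.22 and 5.23 at RT, with both groups tight and well apart (difference 0.90, adjusted p = 0.0876 by limma). Pdk4, the kinase that shuts pyruvate out of oxidation, and Plin5, a lipid droplet protein that binds mitochondria, were higher by 0.73 and 0.71 without overlap. Tmem26, a marker of beige adipocytes, went the other way, with 5.43, 5.27 and 5.23 in the cold, against 6.20, 6.33 and 5.45 at RT (difference -0.68, adjusted p = 0.275 by limma). Differences of Cox7a1 (0.25), Acot11 (0.20), Ppargc1a (0.23), Cox6a2 (-0.14), Tbx1 (-0.08) and Slc27a2 (-0.34) came with overlapping arrays. Of the 24 measured thermogenic and beige genes, 17 were higher and 2 passed the test. Their median difference was 0.32, against -0.01 over all genes. All cold arrays lay above all RT arrays for 9 of them (37.5%), against 7.02% of all genes. Cox8b is also made in muscle, and the skeletal muscle markers varied among the arrays. Their mean deviation from the mean of all 12 arrays was 0.74, -0.45 and -1.34 in cold 1, 2 and 3, and -0.96, -1.45 and 0.75 in RT 1, 2 and 3. Cox8b was at 7.98 in the cold array with the lowest muscle markers and at 6.05 in the RT array with the highest. With the muscle mean as a covariate, chosen after the data were seen, its difference was 2.13 (adjusted p = 0.0367 by limma). What muscle RNA adds to its level in single arrays was not tested.

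Of 33 regulators of browning, 23 were higher, with a median of 0.09. Of the 33, 4 (12.1%) stood without overlap above RT, against 7.02% of all genes. Esrra and Ppargc1b, a nuclear receptor and a coactivator that act on mitochondrial genes, were higher by 0.44 and 0.39 without overlap. Prdm16 and Pparg, transcription factor genes of the brown and the general adipocyte programme chosen after their values were seen, differed by 0.05 and 0.27. Smarcd1 itself had 6.27, 6.51 and 6.89 in the cold, against 6.42, 6.43 and 6.91 at RT, so the groups overlapped (difference -0.03), while a dimmer probe set of it differed by 0.56. Its paralog Smarcd2 differed by -0.32.

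Genes of oxidative phosphorylation, the electron transport chain and ATP synthase, were higher as a group. Of 73 measured, 68 were higher in the cold, with a median difference of 0.32, and 42 (57.5%) had all cold arrays above all RT arrays, against 7.02% of all genes. None had all cold arrays below. Only Cox8b passed the test. Uqcrfs1, the Rieske iron-sulphur protein of complex III, had 5.77, 5.93 and 5.74 in the cold, against 4.97, 4.95 and 5.20 at RT. Both groups were tight and stood apart (difference 0.77, adjusted p = 0.0876 by limma). Cycs, cytochrome c, which carries electrons from complex III to complex IV, had 10.22, 10.39 and 10.10 in the cold, against 9.60, 9.59 and 9.73 at RT (difference 0.60, adjusted p = 0.0876), and the 4 further probe sets named for it differed by 0.28 to 0.95. Uqcrb of complex III was higher by 0.51 without overlap. Ndufa11 of complex I, Cyc1 of complex III and Cox5a of complex IV were chosen after their values were seen. They were higher by 0.75, 0.63 and 0.47, each without overlap. A second, dimmer probe set of Ndufa11 differed by 0.04.

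The steps that feed electrons to that chain were higher too. Of 26 genes of fatty acid beta-oxidation, 25 were higher, with a median of 0.42, and 15 (57.7%) stood without overlap above RT, none below. Slc25a20, the carrier that takes acylcarnitines into mitochondria, had 7.96, 8.07 and 7.95 in the cold, against 7.38, 7.34 and 7.34 at RT. Its arrays were tight within both groups (difference 0.64, adjusted p = 0.0876 by limma). Acadvl and Hadha, enzymes for long-chain acyl groups, were higher by 0.71 and 0.52, and Eci1, which handles double bonds, by 0.62, all without overlap. Cpt1a, the liver form of the enzyme that makes those acylcarnitines, had overlapping arrays and a difference of 0.11.

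Of 27 genes of pyruvate oxidation and the tricarboxylic acid cycle, 24 were higher, with a median of 0.39. Of the 27, 15 (55.6%) stood without overlap above RT. Mpc1, a subunit of the carrier that takes pyruvate into mitochondria, had 10.46, 10.85 and 10.28 in the cold, against 9.56, 9.46 and 9.83 at RT. The groups did not overlap (difference 0.92, adjusted p = 0.0876 by limma), and a further probe set differed by 0.40. Pcx, pyruvate carboxylase, and Dlat, a subunit of pyruvate dehydrogenase, were higher by 0.84 and 0.83, and Sdhb of succinate dehydrogenase by 0.45. Of 19 genes that break down branched-chain amino acids, 18 were higher, with a median of 0.29 and 8 (42.1%) without overlap above RT. Bckdhb, a subunit of the complex at the committed step, was higher by 0.52, whereas Bcat1, a cytosolic transaminase, differed by -0.58.

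**Figure D2:**
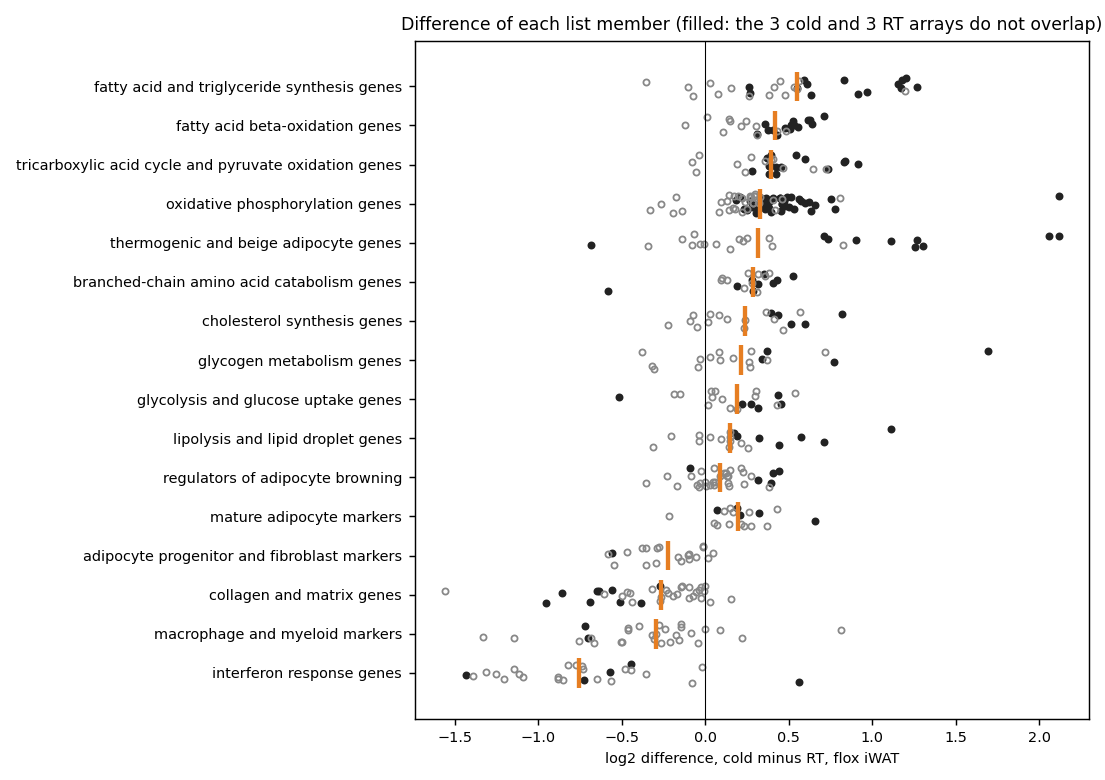
Log2 difference, cold minus RT, of every measured member of 16 gene lists in flox iWAT. Each circle is 1 gene, filled where its 3 cold and 3 RT arrays do not overlap, and the orange bar is the list median, which runs from 0.55 for fatty acid and triglyceride synthesis to -0.76 for the interferon response genes.

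Fat synthesis had a higher median than any other list in that plot. Of 29 genes of fatty acid and triglyceride synthesis, 26 were higher, with a median of 0.55, and 14 (48.3%) stood without overlap above RT, none below. None passed at 0.05 and 5 passed at 0.1. Along the route, Acly, which splits exported citrate into acetyl-CoA, had 10.79, 10.70 and 10.28 in the cold, against 9.12, 9.43 and 9.62 at RT. Cold 3 was the lowest cold array and RT 3 the highest RT array, still without overlap (difference 1.20 ± 0.18 SE, adjusted p = 0.0876 by limma, 2.30-fold). Acss2, which makes acetyl-CoA from acetate, had 8.61, 8.95 and 8.28 in the cold, against 7.21, 7.34 and 7.76 at RT (difference 1.17). Me1, malic enzyme, which supplies NADPH, had 11.60, 11.68 and 11.17 in the cold, against 9.90, 10.22 and 10.77 at RT (difference 1.18). In both genes cold 3 and RT 3 were again the arrays nearest to each other.

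Acaca, acetyl-CoA carboxylase, had 10.92, 10.76 and 10.41 in the cold, against 9.71, 9.50 and 9.97 at RT (difference 0.97). Fasn, fatty acid synthase, had 12.14, 12.06 and 11.94 in the cold, against 11.24, 11.22 and 11.78 at RT. RT 3 came close to the cold arrays here, and the difference was 0.63 (adjusted p = 0.195 by limma). Elovl6, which lengthens palmitate, was higher by 1.16 and Slc25a1, the citrate carrier, by 0.83. Dgat1, which adds the last fatty acid to triglyceride, had 8.92, 8.81 and 8.74 in the cold, against 7.94, 7.71 and 8.08 at RT, with tight groups well apart (difference 0.91 ± 0.13 SE). Acss2, Me1, Acaca and Dgat1 shared the adjusted p of 0.0876 (limma). Gpam and Agpat2, which act earlier on glycerol phosphate, were higher by 0.59 and 0.61 without overlap. Scd1 (0.15) and Dgat2 (0.26) and the transcription factor genes Srebf1 (0.45) and Mlxipl (0.03) had overlapping arrays.

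**Figure D3:**
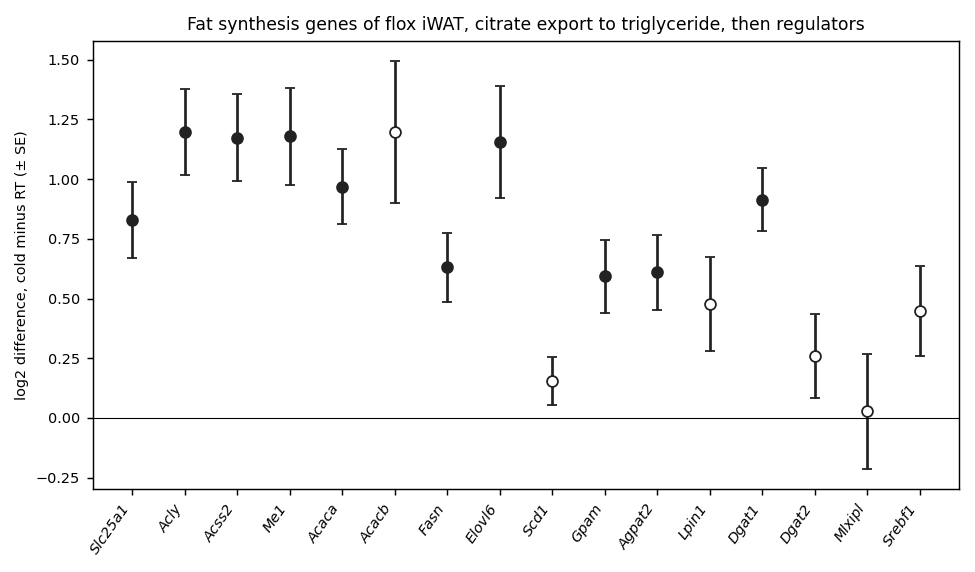
Log2 difference, cold minus RT, ± SE for 16 fat synthesis genes of flox iWAT in the order of the pathway, with 2 transcription factor genes at the right; filled points mark genes whose cold and RT arrays do not overlap (n = 3 each). The genes from Slc25a1 to Acaca lie between 0.83 and 1.20, while Scd1, Dgat2 and Mlxipl lie at or below 0.26.

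Promoters of these pathways are printed because their genes are textbook members of electron transport and of fat synthesis. They are again the 120 bases before the RefSeq start, chr6:50566570-50566689 for Cycs and chr11:120824548-120824667 for Fasn, both on the minus strand of GRCm38.p6. Capitals mark NRF1-type sites (GCATGCGC) and CCAAT boxes on either strand. Cycs has 1 of each, which begin 60 and 31 bases before the start, and Fasn has 3 CCAAT boxes, which begin 90, 62 and 59 bases before the start, the last 2 sharing bases.
Cycs: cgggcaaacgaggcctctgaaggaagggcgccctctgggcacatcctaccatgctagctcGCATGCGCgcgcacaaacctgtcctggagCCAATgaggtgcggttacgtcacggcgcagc
Fasn: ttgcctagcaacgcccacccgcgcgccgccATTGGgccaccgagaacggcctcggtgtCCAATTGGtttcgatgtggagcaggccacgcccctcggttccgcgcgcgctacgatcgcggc
In windows of 300 bases (250 before to 50 after the start) searched on both strands, GCATGCGC was found for 11 of 61 oxidative phosphorylation genes that had a window (18%), for 3 of 22 beta-oxidation genes (13.6%) and for none of 23 fat synthesis genes, against 3.05% of 27025 genes. CCAAT was found for 16 of 23 fat synthesis genes (69.6%) and 15 of 15 cholesterol synthesis genes, against 41.1% of all. It was found for 17 of 25 tricarboxylic acid cycle genes (68%) and 11 of 22 beta-oxidation genes (50%). The share was 39.3% for oxidative phosphorylation genes (24 of 61) and 31.6% for thermogenic genes (6 of 19). The E-box CACGTG was found for 5 of 23 fat synthesis genes (21.7%) and 4 of 15 cholesterol synthesis genes (26.7%), against 8.09% of all. It was also found for 4 of 25 tricarboxylic acid cycle genes (16%) and 3 of 19 thermogenic genes (15.8%). It was found for 5 of 61 oxidative phosphorylation genes (8.2%) and for none of 22 beta-oxidation genes. A nuclear receptor half-site (AAGGTCA) and a cyclic AMP response element (TGACGTCA) were also searched, and their shares are not given here. These matches describe the letters of the windows and were not tested against the differences.

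Around these pathways, Slc27a1, a fatty acid transport protein, had 10.59, 10.24 and 9.88 in the cold, against 9.31, 8.94 and 9.14 at RT (difference 1.11, adjusted p = 0.0876 by limma), with no overlap. Egln3, an oxygen-sensing prolyl hydroxylase, had 5.42, 5.99 and 5.87 in the cold, against 4.84, 4.73 and 4.84 at RT (difference 0.96, same adjusted p). Mgst2, a glutathione transferase of membranes, had 6.30, 6.25 and 6.20 in the cold, against 5.67, 5.52 and 5.43 at RT (difference 0.71, same adjusted p). In all 3 genes every cold array lay above every RT array. Gys2, glycogen synthase of liver and fat, had 7.99, 8.29 and 7.78 in the cold, against 5.66, 6.15 and 7.18 at RT. Its RT arrays were spread over 1.5 units, with RT 3 nearest to the cold arrays (difference 1.69, adjusted p = 0.1003 by limma, 3.23-fold). Pygl, which breaks glycogen down, and Gbe1, which branches it, were higher by 0.77 and 0.71. Of 18 glycogen genes 13 were higher (median 0.21) with 4 (22.2%) apart above RT, against 7.02% of all genes.

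Cholesterol synthesis had 15 of 19 genes higher (median 0.24) and 5 (26.3%) apart above RT. Nsdhl, a sterol dehydrogenase, was higher by 0.82, and Lss, Hmgcs1 and Fdps by 0.60, 0.57 and 0.51. Glycolysis and glucose uptake had 16 of 19 higher (median 0.19) and 5 (26.3%) apart above RT. Slc16a1, a lactate and pyruvate transporter, was higher by 0.46, and its relative Slc16a3 differed by -0.52. Lipolysis and lipid droplet genes had 15 of 19 higher (median 0.15) and 7 (36.8%) apart above RT. Pnpla2, adipose triglyceride lipase, differed by 0.32.

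Of 27 adrenergic, cyclic AMP and natriuretic genes 14 were higher (median 0.02), of 14 calcium cycling genes 7 (median 0.01) and of 8 creatine cycle genes 2 (median -0.05). Chrna2, the acetylcholine receptor subunit of beige adipocytes, had 4.95, 4.72 and 4.76 in the cold, against 4.08, 3.81 and 3.47 at RT, without overlap (difference 1.02, adjusted p = 0.200 by limma). The receptors for corticotropin, oxytocin and kisspeptin (Mc2r, Oxtr, Kiss1r) differed by 0.16, 0.46 and -0.28, and the value of Oxtr ran from 0.089 to 0.745 with single arrays left out. Of the 8 pituitary and cholinergic receptors 6 were higher (median 0.20).

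Markers of the fat cell itself were mostly a little higher in the cold. Of 18 mature adipocyte markers 17 were higher, with a median of 0.20, and 5 (27.8%) stood without overlap above RT, against 7.02% of all genes. Their mean deviation from the mean of all arrays was 0.16, 0.16 and -0.0 in cold 1, 2 and 3. It was 0.01, -0.35 and 0.04 in RT 1, 2 and 3, so the arrays overlapped and RT 2 alone was low. The median ran from 0.086 to 0.261 with single arrays left out. Hcar1, the lactate receptor of adipocytes, had 9.15, 9.27 and 9.27 in the cold, against 8.84, 8.20 and 8.68 at RT, without overlap (difference 0.66). Adipoq, adiponectin, had 9.99, 9.91 and 9.89 in the cold, against 9.97, 9.77 and 9.89 at RT, so the groups overlapped (difference 0.05). Plin1 differed by 0.14 and Lep, leptin, by -0.22, also with overlap. In whole tissue, fewer cells of a type and less RNA per cell cannot be told apart.

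On the lower side no gene passed the test, and 5 had an adjusted p of 0.0876 by limma. Mt2, a metallothionein that binds zinc and copper, had 9.15, 8.93 and 8.72 in the cold, against 10.58, 10.45 and 9.70 at RT. RT 3 was the nearest to the cold arrays, without overlap (difference -1.31, 2.48-fold higher at RT). Hp, haptoglobin, an acute-phase protein that fat also secretes, had 10.31, 10.50 and 10.09 in the cold, against 11.07, 11.40 and 11.08 at RT, with all RT arrays above (difference -0.88). Has2, which makes hyaluronan, had 5.75, 5.79 and 5.55 in the cold, against 6.62, 6.73 and 6.23 at RT (difference -0.83). Dclk1, a kinase that binds microtubules, had 6.64, 6.60 and 6.54 in the cold, against 7.30, 7.31 and 6.99 at RT (difference -0.61). The fifth was A530064D06Rik, a gene with no role given here, chosen after its values were seen, at -2.27. Adam8, a membrane protease of leukocytes, and Emp1, an epithelial membrane protein, differed by -1.19 and -1.16 without overlap.

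Collagen and matrix genes were lower as values. Of 35 measured, 33 were lower, with a median of -0.27, and 9 (25.7%) had all cold arrays below all RT arrays, against 5.86% of all genes. Col1a1 had 8.97, 9.52 and 8.95 in the cold, against 10.40, 10.16 and 9.76 at RT. The groups came within 0.3 units of each other (difference -0.96, adjusted p = 0.156 by limma). Col1a2 differed by -0.86, Col6a3 by -0.65 and Col5a2 by -0.64, each without overlap. Of 20 markers of adipocyte progenitors and fibroblasts 18 were lower, with a median of -0.22. Only 1 gene (5%) stood apart below RT, no more than the 5.86% of all genes. Their mean deviation from the mean of all arrays was -0.16, 0.07 and -0.37 in cold 1, 2 and 3. It was 0.26, -0.03 and 0.03 in RT 1, 2 and 3, so the arrays overlapped and RT 1 was the highest.

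Interferon response genes were lower in the cold as a list, and the RT arrays differed among themselves. Of 26 measured, 25 were lower, with a median of -0.76, and 4 (15.4%) stood below RT without overlap, against 5.86% of all genes. Their mean deviation was -0.28, -0.31 and -0.20 in cold 1, 2 and 3, and 0.68, 1.07 and -0.31 in RT 1, 2 and 3, so that RT 3 was level with the cold arrays. Oas3, an interferon-induced sensor of double-stranded RNA, had 4.07, 4.35 and 4.28 in the cold, against 5.74, 6.83 and 4.44 at RT. Slfn4, induced by interferon in myeloid cells, had 3.75, 2.91 and 3.22 in the cold, against 7.26, 9.06 and 3.20 at RT (difference -3.21). Ccl2, a chemokine that draws monocytes, and Timp1, an inhibitor of matrix proteases, likewise were high in RT 1 and RT 2 and not in RT 3. The heat shock gene Hspa1a had 4.74, 5.08 and 4.16 in the cold, against 7.12, 6.80 and 4.69 at RT. Of 29 macrophage and myeloid markers 26 were lower (median -0.29), with mean deviations of -0.15, -0.18 and -0.10 in the cold and of 0.36, 0.52 and -0.28 at RT. Skin and hair follicle markers were high in RT 1 alone, at 1.55, against -0.31 and -0.26 in RT 2 and RT 3 and -0.28 to -0.09 in the cold.

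**Figure D4:**
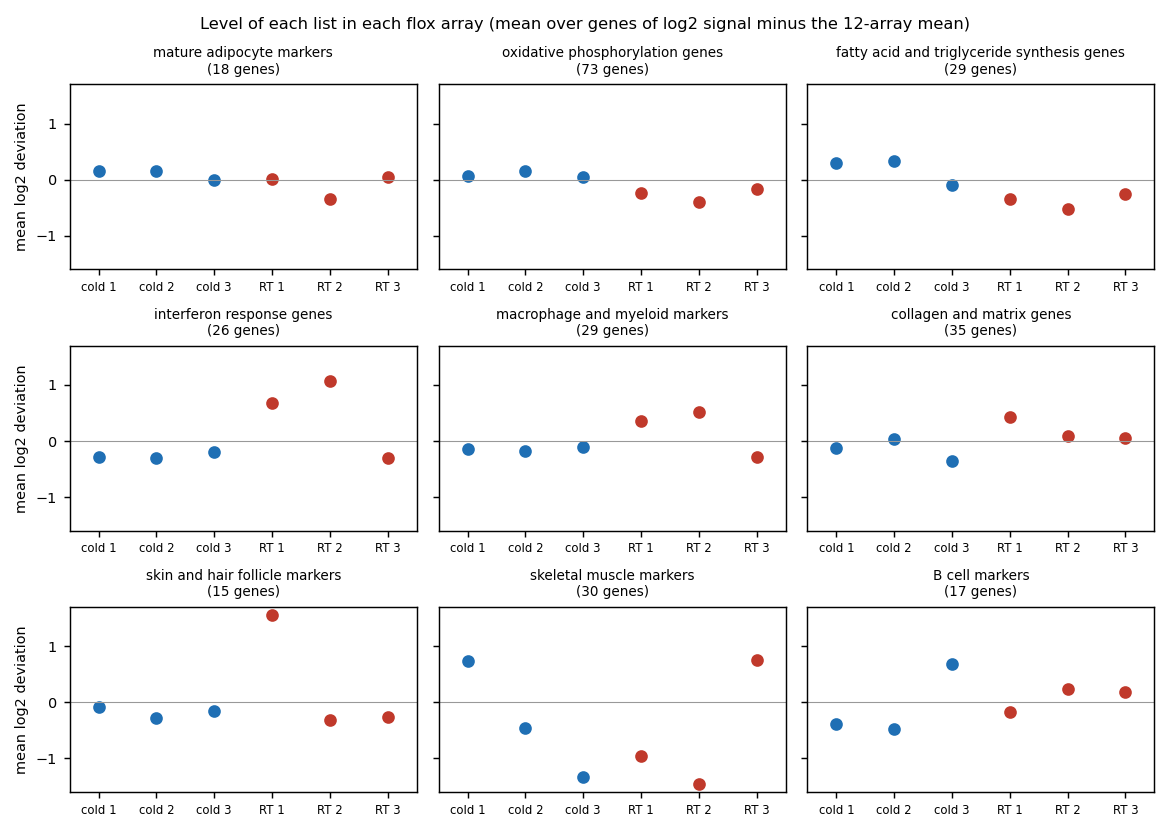
Mean log2 deviation from the 12-array mean for 9 gene lists in each flox array, cold 1 to 3 (blue, left) and RT 1 to 3 (red, right). Oxidative phosphorylation genes lie higher in all 3 cold arrays (0.04 to 0.16, against -0.39 to -0.17 at RT), interferon response genes are high only in RT 1 and RT 2, and skin markers only in RT 1.

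RT 1 and RT 2 were then left out, an alternative chosen after the data were seen, so that the cold arrays were set against the single array RT 3. The medians of the interferon (0.02), macrophage (0.02), skin (0.05) and heat shock genes (0.02) near 0 restate that RT 3 was level with the cold arrays, since the arrays were picked on such genes. Against RT 3 alone, 66 of 73 oxidative phosphorylation genes were higher (median 0.25), 23 of 26 beta-oxidation genes (0.29), 24 of 27 tricarboxylic acid cycle genes (0.24) and 24 of 29 fat synthesis genes (0.29). These are values against 1 array, and the part of RT 1 and RT 2 in the lists was not tested. Of the 35 matrix genes 7 were then higher (median -0.20). Cholesterol synthesis and glycolysis had medians of 0.01 and -0.01. Over all genes the median was -0.01 and 48.2% were higher. No gene passed the test in that fit, where RT 3 is a single array assumed to vary like the others.

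Smarcd1, the targeted gene, had signals of 6.27, 6.26 and 6.37 in cold AKO iWAT and 5.89, 6.26 and 6.30 in RT AKO iWAT, against 6.27 to 6.91 in the flox arrays, and whether its probe set lies in the deleted part is not given in the sources used here. Against the flox response, that of the AKO mice had 84 genes called higher (0.379%) and 19 called lower (0.0857%). The responses differed for 4 genes by the interaction test (0.018%), all larger in AKO, and for none larger in flox (0%). At an unadjusted p below 0.05 there were 1061 of 22180 genes, no more than the share of 0.05 that chance alone gives. Ucp1 had 10.92, 10.41 and 10.59 in cold AKO iWAT, against 3.10, 2.61 and 2.79 in RT AKO iWAT, a difference of 7.81, set against 2.06 in flox. Its 3 cold AKO arrays were all above its 3 cold flox arrays by more than 4 units, while the RT arrays of both genotypes overlapped. The difference of the responses was 5.75 ± 0.53 (SE; adjusted p = 0.00188 by limma). The RT signals of Ucp1 in both genotypes lay below the median of all values (3.635). Slc27a2, a very-long-chain acyl-CoA synthetase, differed by 2.69 in AKO and -0.34 in flox. Cox7a1, the striated muscle and brown fat form of a cytochrome c oxidase subunit, differed by 2.85 in AKO and 0.25 in flox, and Acot11, a thioesterase of brown fat, by 2.19 in AKO and 0.20 in flox. Muscle markers lay at -1.66, 1.12 and 2.88 in the cold AKO arrays and at -0.53, 2.29 and -1.40 in the RT AKO arrays, while Cox7a1 was tight in cold AKO, at 7.54, 7.43 and 7.54, against 4.30, 4.70 and 4.97 in RT AKO. With the muscle mean as a covariate, chosen after the data were seen, 4 genes passed the interaction test and 98 the test in AKO. The part of muscle RNA in the AKO response of Cox7a1 was not tested. Elovl3, with 4.85 in AKO and 1.27 in flox, did not pass (adjusted p = 0.0563 by limma).

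The 2 genes called in flox differed by similar amounts in AKO, 1.72 for Chchd10 and 1.90 for Cox8b. All 20 genes higher at the limit of 0.1 in flox were also higher in AKO, with 12 of them called there. Of the 84 genes called higher in AKO, 81 were higher in flox, with medians of 0.96 in AKO and 0.54 in flox, and 65 stood without overlap above RT in flox. Over all genes 48.3% were higher in flox and 7.02% stood apart above RT. The 19 called lower in AKO had medians of -1.15 in AKO and -0.44 in flox, and 17 of them were lower in flox. The fit gives each gene a single spread over both genotypes, so genes called in AKO are also picked for tight flox arrays, and the reverse. These counts are therefore not an independent check. The median of the thermogenic genes was 1.13 in AKO and 0.32 in flox. For oxidative phosphorylation it was 0.40 in AKO and 0.32 in flox, for beta-oxidation 0.49 in AKO and 0.42 in flox, and for fat synthesis 0.38 in AKO and 0.55 in flox, and these list differences were not tested. P2rx5 differed by 0.25 in AKO and 0.90 in flox, which did not pass as a difference between genotypes (adjusted p = 0.978 by limma). Its signals were 6.78, 6.54 and 6.49 in cold AKO iWAT and 6.54, 6.05 and 6.48 in RT AKO iWAT. The RT AKO arrays thus lay above the RT flox arrays, which were at 4.99, 5.22 and 5.23.

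**Figure D5:**
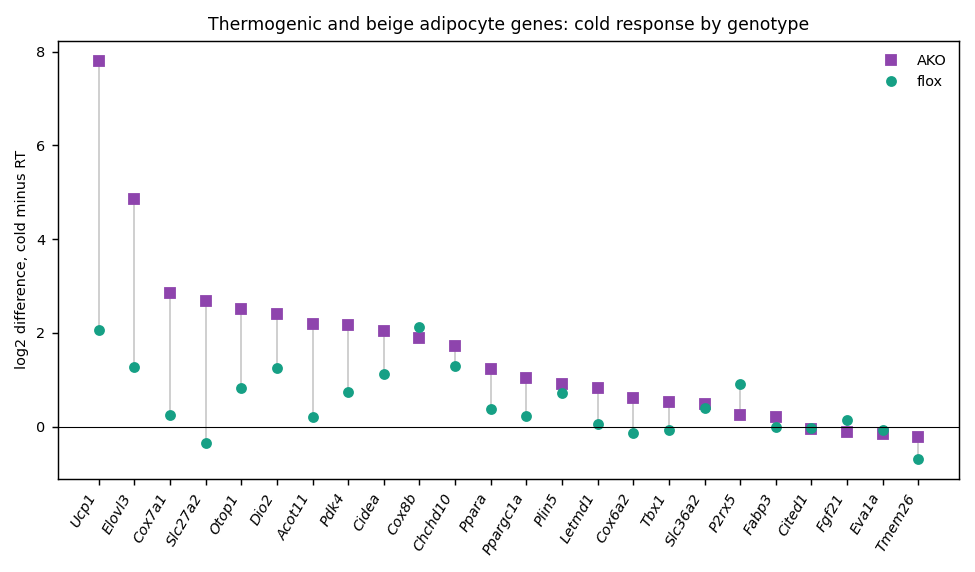
Log2 difference, cold minus RT, of the 24 measured thermogenic and beige adipocyte genes in AKO (purple squares) and flox (green circles), ordered by the AKO difference, with a grey line joining the values of each gene. The 4 genes with an interaction past the threshold are Ucp1, Cox7a1, Slc27a2 and Acot11, while Cox8b (1.90 in AKO, 2.12 in flox), Chchd10 (1.72 and 1.30) and Plin5 lie close together.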

How the data were processed

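RNA of 12 iWAT pools was measured on single-colour Affymetrix arrays (400 ng total RNA, biotinylated cDNA of the WT Plus kit). The authors normalized the arrays by RMA and deposited log2 values per transcript cluster; the submitters' processing notes name RMA and R 3.1.1, and the build behind the array's annotation is not given in the sources used here. Of 41345 clusters, 23521 had 1 symbol in the platform annotation, 1820 had several and 16004 had none, and only the first kind was used. The brightest cluster stood for each of 22180 genes, of which 1082 had further clusters. Array medians lay between 3.58 and 3.71 log2 units. No filter on dim genes was used.

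All 4 groups (3 arrays each) were fitted together with limma 3.58.1 in R 4.3.3 (lmFit, eBayes), with cold minus RT in flox, the same in AKO, and their difference as contrasts, and Benjamini-Hochberg adjustment over all genes at 0.05. The procedure was tested on simulated data. The number of arrays limits the precision, and the median standard error of a gene's difference was 0.15. Lists are described by counts and medians, with no test.

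Genes were named by rule: the genes past the threshold, the smallest p-values in each direction (dim or overlapping genes, predicted genes and clones left out) up to 10, up to 4 members of each list described, and a short list of thermogenic and adipocyte genes. Not every gene picked by this rule is described. Among the falls with the smallest p-values, Apol7b (-0.94), Cass4 (-0.59), Ifi203-ps (-0.58) and Ifna4 (-1.94) are left out, each lower without overlap. Me1, Elovl6, Acacb, Slc25a1, Gpam, Agpat2, Srebf1, Mlxipl, Lpin1, Dgat2, Otop1, Ndufa11, Cox5a, Cyc1, Cpt1a, Prdm16, Pparg, Plin1, Slfn4, Ccl2, Timp1, Mt1, Lrg1, Pex3, Pex11a, Ephx2 and A530064D06Rik were chosen after their values were seen. All lists were chosen with earlier results of these data known. Promoter windows were taken from RefSeq (GRCm38.p6), by symbol for the printed stretches and by gene ID for the motif shares. A gene counted where any of its windows held the motif (32851 windows for 27025 genes).

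Alternatives were median centring, quantile normalization, a filter on dim genes, all clusters or their mean, trend with robust settings and array weights. Others were the replicate number as a block, flox arrays alone, an unpaired t-test on them, other thresholds and leaving out each array.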

Additional observations from a re-analysis of the deposited data

Results flagged for a closer look

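The cold response of 4 genes differed between AKO and flox by the interaction test of limma, each larger in AKO, with Benjamini-Hochberg adjustment over 22180 genes. For Ucp1 the difference of the log2 responses was 5.75 (7.81 in AKO, 2.06 in flox, adjusted p = 0.00188). For Slc27a2 it was 3.03 (2.69 in AKO, -0.34 in flox, adjusted p = 0.00188). For Cox7a1 it was 2.60 (2.85 in AKO, 0.25 in flox, adjusted p = 0.00188). For Acot11 it was 1.99 (2.19 in AKO, 0.20 in flox, adjusted p = 0.00350). With 3 arrays in a group, single arrays were not tested as outliers.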

How the results depend on the processing

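The count of 2 genes called in flox was 16 (all higher) among genes above the overall median signal in at least 3 arrays. It was 50 (42 higher, 8 lower) with trend and robust settings and 25 at an adjusted p below 0.1. It was 0 when every transcript cluster was tested and in the 6 flox arrays alone. An unpaired t-test on the 6 flox arrays also gave 0 after adjustment. The paper uses such a test for other measurements and names none for the arrays. Without adjustment, 1521 genes had a p below 0.05 by that t-test, 881 higher and 640 lower. The count ranged from 0 to 104 when single arrays were left out. It was 104 without flox RT 3 and 7 without flox cold 3. It was 0 without flox RT 1, flox cold 2, AKO RT 2 or AKO cold 2. It was also 0 with RT 1 and RT 2 both left out. It was 2 after centring, quantile normalization, cluster means, array weights and with the muscle covariate. The count of 103 in AKO was 235 at an adjusted p below 0.1, 202 with the filter, 62 over all clusters, 212 with trend and robust settings, 208 with array weights, and 40 to 123 with single arrays left out. The 4 interaction calls became 7 over all clusters and ranged from 4 to 13 with single arrays left out. The cause of these shifts was not tested.

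The labels give same-numbered cold and RT arrays a common replicate number and state no pairing or batch. The deviations of these flox arrays correlated at 0.07, -0.13 and -0.08. With so few arrays in a group, such values cannot decide whether same-numbered arrays were handled together. With the replicate block 1 gene was called, Chchd10 (adjusted p = 0.0395 by limma), and Cox8b had an adjusted p of 0.150.

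Of 95 genes named, 80 kept the sign of their difference in all 15 alternatives run on them. The other 15 all had overlapping arrays. Smarcd1 (-0.03) became 0.025 after centring and 0.267 as a cluster mean, and ranged from -0.196 to 0.131 with single arrays left out. That range was -0.003 to 0.101 for Adipoq, -0.345 to 0.187 for Cox6a2, -0.006 to 0.201 for Cpt1a, -0.537 to 0.111 for Kiss1r, -0.022 to 0.325 for Mc2r, -0.149 to 0.22 for Mlxipl, -0.013 to 0.253 for Plin1, -0.132 to 0.184 for Prdm16 and -0.194 to 0.048 for Tbx1. Prdm16 was -0.003 as a cluster mean. With both RT 1 and RT 2 left out, an alternative added after seeing the data, as was the muscle covariate, Ccl2 became 0.185, Slfn4 0.091, Acot11 -0.037, Dgat2 -0.064, Mlxipl -0.037, Plin1 -0.076, Ppargc1a -0.141, Prdm16 -0.057 and Tbx1 0.146. Of 44 list medians, 20 had the same sign in every alternative.

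With 3 pools a group the precision rests on the number of arrays. Pools of 1 or 2 mice hide the spread between animals, sex and array batch are not in the labels used here, and dim probe sets understate a change. Genes without a probe set of a single symbol, such as Adrb3 and Cpt1b, were not analysed here.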

Other observations

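Several families of mitochondrial and peroxisomal genes that the report does not describe were read after the values of single genes had been seen. Of 14 peroxins (Pex), which build peroxisomes, the organelles that shorten very long fatty acids, 13 were higher in cold flox iWAT than at RT, with a median of 0.32, and 8 (57.1%) stood without overlap above RT. Pex3, which places membrane proteins in new peroxisomes, had 9.80, 9.80 and 9.44 in the cold, against 9.09, 9.12 and 9.14 at RT, with the groups apart (difference 0.56, adjusted p = 0.141 by limma). Pex11a, which divides them, differed by 0.59, and Ephx2, an epoxide hydrolase found there and in the cytosol, by 0.81. Of 23 genes of the mitochondrial import machinery (Timm, Tomm) 20 were higher (median 0.21), with 10 (43.5%) apart above RT. Of 71 mitochondrial ribosome genes 60 were higher (median 0.15), with 19 (26.8%) apart above. Of 46 mitochondrial carrier genes (Slc25) 26 were higher (median 0.07), with 11 (23.9%) apart above and 3 (6.52%) apart below RT. Cytosolic ribosome genes had 25 of 60 higher (median -0.02). Proteasome genes had 31 of 39 higher (median 0.11), with 14 (35.9%) apart above. Over all genes 7.02% stood apart above RT and 5.86% below.

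Among secreted and metal-binding proteins, Lrg1, an acute-phase glycoprotein, had 8.37, 8.38 and 8.55 in the cold, against 9.32, 8.90 and 9.11 at RT, with all RT arrays above (difference -0.68). Mt1 differed by -0.49, in the direction of Mt2 and also without overlap. Of 32 chemokine genes (Ccl, Cxcl) 25 were lower, with a median of -0.34. Only 2 (6.25%) stood below RT without overlap, close to the 5.86% of all genes, and the high values of Ccl2 lay in RT 1 and RT 2.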
